A study of Mus musculus with 12 samples.

Results

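RNA from mouse 2-cell embryos in which Eif1ad3 and related transcripts had been targeted was compared with RNA from control 2-cell embryos, to ask which functions and classes of gene differed beyond the targeted family. The genes taken were all those with at least 1 CPM (a gene's reads scaled to a common library total) in at least 2 of the 4 libraries. They numbered 13332 of the 17866 genes listed, or 74.6%, and the other 4534 genes were not tested. The series holds 12 samples, of which these 4 libraries (control A and B, knockdown A and B) form the knockdown experiment. Embryos came from CF1 mice. By the series' design text, 1-cell embryos were injected either with mRNA for RfxCas13d, an RNA-cutting enzyme, alone (control, genotype label WT) or with the same mRNA and guide RNA (knockdown, genotype label Eif1ad3_KD), and were taken at the 2-cell stage. All 4 libraries therefore carried the nuclease by that text. The samples' protocol instead names morpholino oligos and Cas13d protein given to oocytes, and the labels do not settle which applies. The number of embryos in a library is not stated, and neither is whether libraries with the same letter were collected together, so the p-values measure only the spread between these samples.

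The mouse 2-cell embryo lives on RNA and protein stored in the egg while its own genome is being switched on. Maternal transcripts are degraded over the same hours, so a transcript's level at this stage reflects both clearance of the stored copy and new synthesis. Eif1ad genes are named for a domain shared with eIF1A, a translation initiation factor that binds the small ribosomal subunit and helps it find the start codon. Since the embryos were measured in bulk, fewer cells expressing a gene and less of its RNA per cell cannot be told apart.

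Library totals were 18173916 to 27902514 reads, and 12478 to 13354 genes reached 1 CPM in a library. A floor of 3 reads corresponded to 0.108 to 0.165 CPM, and it covers counting error only because the kit (Smart-seq2) carries no molecular identifiers. Oocyte markers (Zp3, Gdf9, Bmp15, Zar1 and Mos) were all listed, and their CPM summed to 1349, 1148, 3234 and 1218 in control A, control B, knockdown A and knockdown B. The 2-cell markers Zscan4d, Zfp352 and Obox3 summed to 2906, 2881, 2124 and 2605 CPM in the same order. Of 11 cumulus and granulosa markers, 6 were listed and 4 reached the filter, with sums of 8.04, 13, 15.5 and 7.92 CPM, and Amh, Foxl2, Ptx3, Inha and Inhba were not listed. Blastocyst markers summed to between 1.6 and 3.08 CPM and sperm markers to between 1.1 and 2.04 CPM.

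The targeted gene Eif1ad3 was at 839 and 663 CPM in control A and B and at 277 and 377 CPM in knockdown A and B. Its mean was 751 ± 125 CPM in control and 327 ± 70.8 CPM in knockdown (SD, n = 2 each), a log2 difference of -1.21 (SE 0.33), and the groups did not overlap. On the log2(CPM + 1) scale used throughout, which understates the change of low genes, limma called 0 of the 13332 genes at an adjusted p under 0.05 (0%), Eif1ad3 included. No adjusted p lay below 0.469. Without adjustment, limma's p was under 0.05 for 393 genes that were higher in knockdown and 333 that were lower, 726 in all. On the recovered reads edgeR called 0 genes (758 at an unadjusted p under 0.05) and DESeq2 called 15 (1029 unadjusted). The knockdown libraries differed from each other more than the controls did, with a median gene SD of 0.487 against 0.243 on the log2 scale. The Y-linked genes Uty, Eif2s3y and Kdm5d, chosen after their values were seen, were higher in each B library than in the A library of its group. Ddx3y, also Y-linked, was so in the knockdown libraries but not in the controls. Uty was at 28, 70.5, 38.7 and 170 CPM and Eif2s3y at 15.2, 44, 16.5 and 132 CPM in control A, control B, knockdown A and knockdown B. Kdm5d was at 0.44, 7.55, 1.86 and 10.3 CPM and Ddx3y at 0.4, 0, 1.47 and 12.2 CPM in the same order. The part of this in other differences between libraries was not tested. With knockdown A left out limma called 1250 genes, and with knockdown B left out it called 76, the lone library being assumed to vary like the others. No gene named below passed the test, so each is described by its 4 values, and with 2 libraries against 2 an exact two-sided permutation test cannot go below p = 0.333.

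Because of that spread, functions are described per library, as the median over a list's genes of log2(CPM + 1) minus the control mean. Over all genes this median was 0.14 in knockdown A and -0.17 in knockdown B, so a list is read against those values. Both knockdown libraries lay above both controls for 2415 genes (18.1%) and below both for 2456 genes (18.4%); a gene of either kind is called separated here. Some genes passed the filter through 1 group alone: 251 reached 1 CPM in both knockdown libraries and neither control, and 150 the reverse. The counts of separated genes and those that follow include them. In 349 genes (2.62%) both knockdown libraries were at least 2-fold above the control mean and in 137 (1.03%) at least 2-fold below it. With a pseudocount of 0.1 these counts were 725 and 273, and with a pseudocount of 5 they were 54 and 36. The libraries often disagreed: 4124 genes (30.9%) were above the control mean in knockdown A and below it in knockdown B, and 1922 (14.4%) were the reverse. In knockdown A 7846 genes lay above the control mean and 5486 below it, and in knockdown B 5644 above and 7688 below. Of 60 function lists covering 4096 genes, both knockdown medians lay below both control medians in 10, above them in 3 and on opposite sides in 34. Over all genes the median log2 difference was 0.02 with the deposited scaling and between -0.02 and 0.09 with the other scalings.

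**Figure D1:**
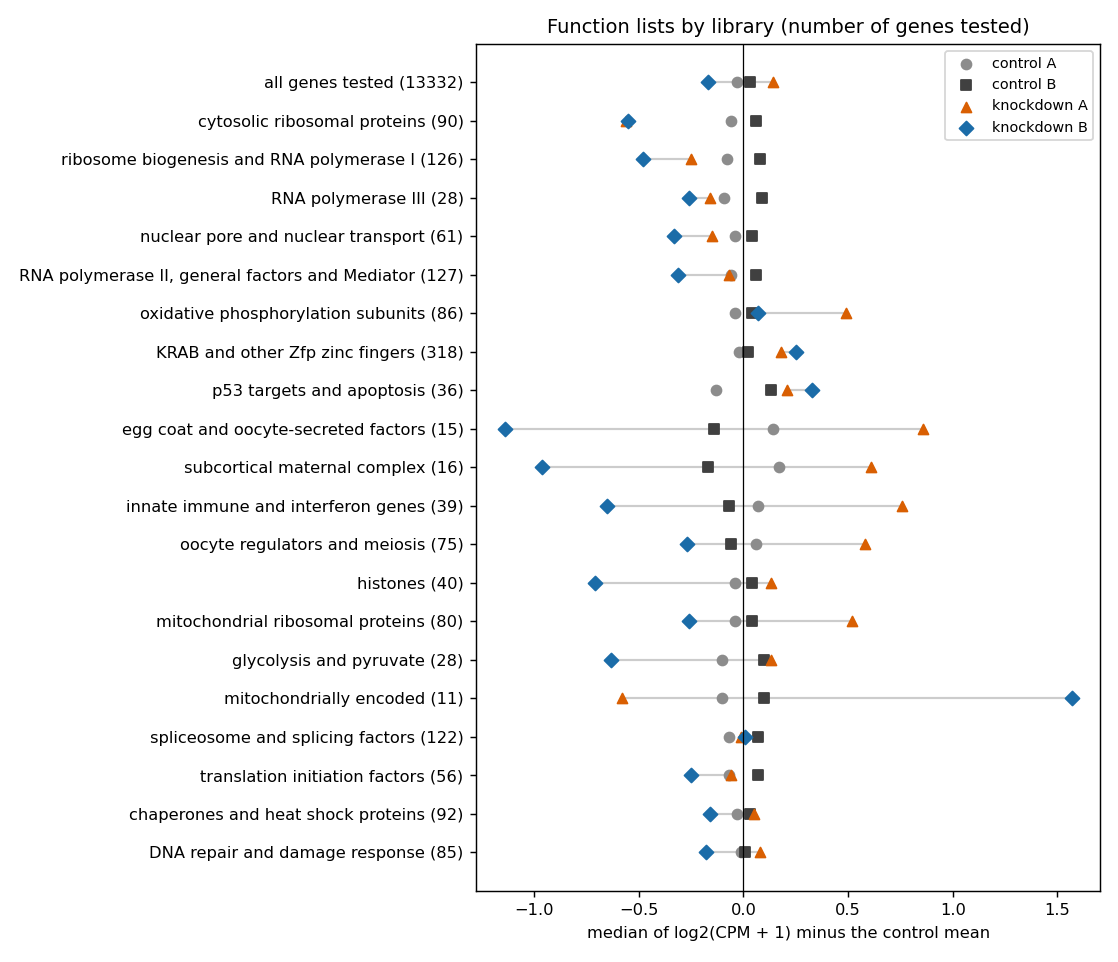
Median of log2(CPM + 1) minus the control mean (x axis) for function lists and all genes tested, 1 marker per library, with the number of genes tested in brackets and a line joining the knockdown libraries. Ribosomal protein and ribosome biogenesis lists lay left of both controls in both knockdown libraries, zinc finger genes lay right of them, and oocyte lists lay right in knockdown A and left in knockdown B.

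Genes for making ribosomes were lower in both knockdown libraries. Cytosolic ribosomal protein genes had medians of -0.56 in knockdown A and -0.55 in knockdown B, and 58 of 90 (64.4%) were separated below the controls. Ribosomal protein mRNAs in many animals begin with a C followed by a run of pyrimidines, through which their translation is regulated. The 30 bases around the annotated start (15 before it, 15 from it on) were therefore searched on the gene's strand for a C at the start base followed by at least 4 bases that are each C or T. Of the genes tested, 13235 (99.3%) matched a RefSeq entry and 10265 (77%) had such a window. The run stood in 245 of those (2.39%), close to its share in all 27025 windows of the table (673, 2.49%), and in 14 of 65 ribosomal protein genes (21.5%). The windows below, credited to RefSeq (GRCm38.p6), show the run in capitals in 3 ribosomal protein genes and in 2 other genes, and 2 of the ribosomal protein genes with most reads, which lack it at this annotated base.
Rps6, chr4:86857353-86857382, minus strand: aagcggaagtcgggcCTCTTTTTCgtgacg
Fau, chr19:6057932-6057961, plus strand: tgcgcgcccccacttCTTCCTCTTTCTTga
Rplp2, chr7:141447636-141447665, plus strand: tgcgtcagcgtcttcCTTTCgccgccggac
Ldhb, chr6:142507943-142507972, minus strand: cggccccgcctcctcCTCCTCCTTCTTgta
Gpbp1, chr13:111490113-111490142, minus strand: tagccccgccccttcCTCTCCCCCaggcgc
Rplp0, chr5:115559452-115559481, plus strand: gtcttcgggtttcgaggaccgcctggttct
Rpl41, chr10:128549154-128549183, minus strand: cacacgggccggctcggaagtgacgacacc

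Ribosomal protein genes were lower with or without the run at the annotated base. A gene whose RNA starts at another base counts here as lacking it, so these values cannot tell what the run does. Ribosomal protein genes with it had a median log2 difference of -0.38 (14 genes) and those without it -0.63 (51 genes). Outside the ribosomal proteins the median was 0.02 both for the 231 genes with the run and for the 9969 without. Rplp0, a protein of the ribosomal stalk whose window lacks the run, was at 4795 and 4890 CPM in control and at 3574 and 1300 CPM in knockdown A and B. Rpl41 was at 5043, 3613, 2525 and 1904 CPM in control A, control B, knockdown A and knockdown B. Both genes were separated, Rplp0 mainly through knockdown B. The members that lay above the controls were Rpl10l, Rpl22l1 and Rpl39l, paralogs of standard ribosomal proteins, and Rpl39l read 44, 74.2, 86.9 and 118 CPM in the same library order.

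Ribosome biogenesis genes, which encode RNA polymerase I, the small nucleolar ribonucleoproteins that modify ribosomal RNA and the factors that fold and trim it, were lower as well. Their medians were -0.25 in knockdown A and -0.48 in knockdown B, 93 of 126 had a negative log2 difference, and 52 (41.3%) were separated below the controls against 9 (7.14%) above. Nolc1, a nucleolar phosphoprotein that chaperones those small ribonucleoproteins, was at 563 and 702 CPM in control A and B and at 372 and 204 CPM in knockdown A and B. That is 632 ± 98.3 against 288 ± 119 CPM (SD, n = 2 each), a log2 difference of -1.19 (SE 0.38). Polr1e, a subunit of RNA polymerase I, read 230, 248, 135 and 106 CPM across control A, control B, knockdown A and knockdown B. Nob1, the nuclease that makes the last cut in 18S ribosomal RNA, read 150, 146, 92.5 and 48.5 CPM. In all 3 the groups were apart and knockdown B was the lowest library.

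Within the list, the 13 RNA polymerase I genes had medians of -0.44 and -0.47 in knockdown A and B, and 8 were separated below. The 9 core genes of the box C/D and box H/ACA ribonucleoproteins had medians of -0.54 and -0.59, and 7 were separated below. The 10 RNA exosome genes, whose nuclease also works in other RNA decay, had a median log2 difference of 0.08, with 5 higher and 5 lower. The 3 members with most reads did not follow the list. Npm1, a nucleolar histone and ribosome chaperone, was at 1512, 1319, 1155 and 1831 CPM, and Brix1, a factor for the large subunit, at 1253, 1203, 1047 and 1893 CPM, so knockdown A was the lowest and knockdown B the highest library in both. Rsl1d1 was at 1080, 1203, 1372 and 1355 CPM, with both knockdown libraries above both controls. Polr1f, Exosc3 and Rrs1 were also separated above the controls. Genes of high level were more often lower: of the 460 genes between 300 and 1000 CPM, 39.6% were separated below the controls and 12.4% above. Set against genes of like level, the ribosome biogenesis median was -0.27, with -0.20 in knockdown A and -0.30 in knockdown B.

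**Figure D2:**
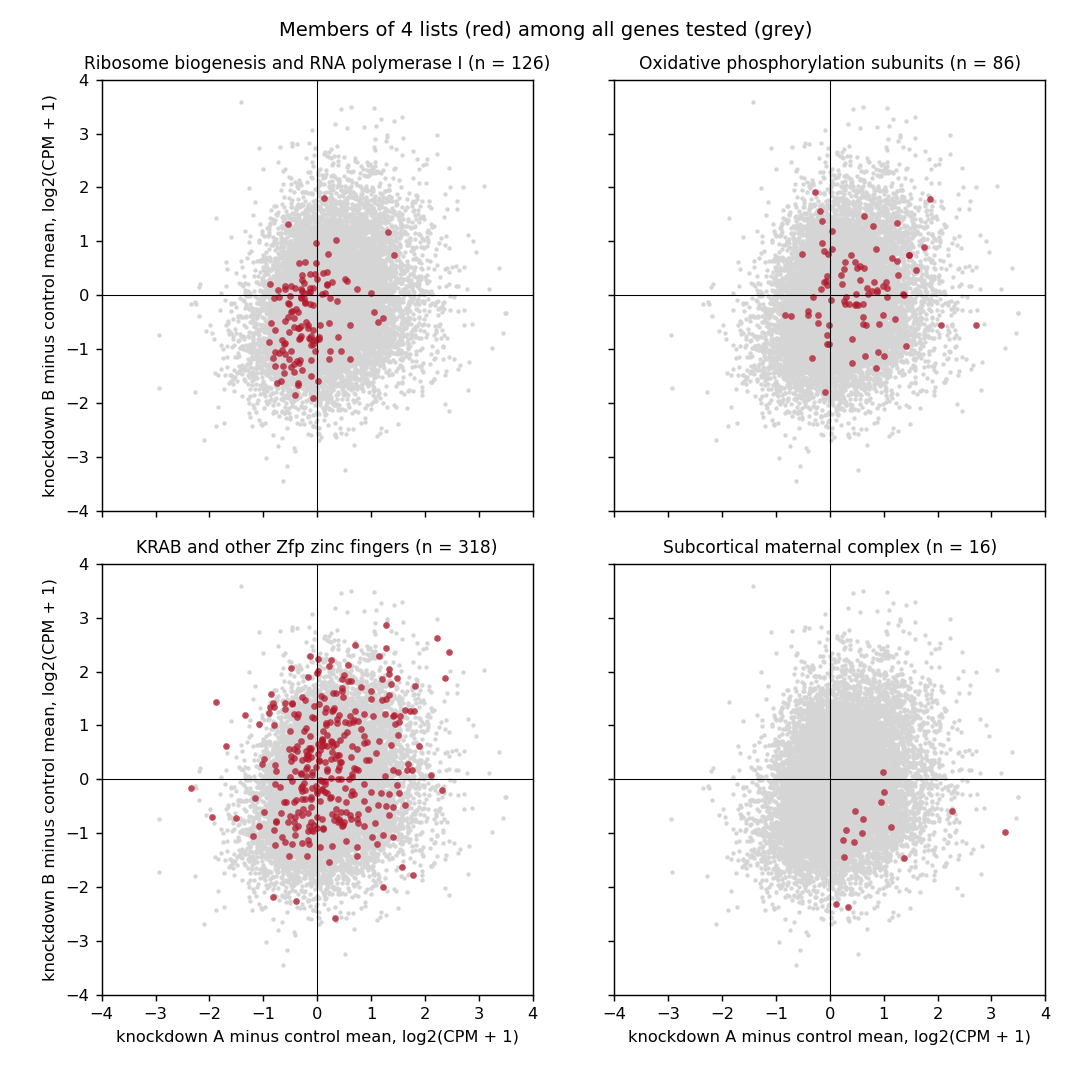
Log2(CPM + 1) minus the control mean in knockdown A (x axis) and knockdown B (y axis), 1 point per gene, with all genes tested in grey, the members of 1 list per panel in red, and 4 genes beyond the axes not drawn, none of them a list member. Of 126 ribosome biogenesis genes 70 fall at the lower left, and of 16 subcortical maternal complex genes 15 fall in the lower right. Among all genes tested, 26.7% fall at the lower left and 30.9% in the lower right.

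As a list, translation initiation factors overlapped the controls. The 56 initiation factors had medians of -0.06 and -0.25 in knockdown A and B (0.04 and -0.05 against genes of like level), with 17 (30.4%) separated below and 6 (10.7%) above. Eif3b, a scaffold subunit of eIF3, which brings the small subunit to mRNA, was at 85.1, 64.9, 30.2 and 25.2 CPM in control A, control B, knockdown A and knockdown B, a log2 difference of -1.40 (SE 0.39). Eif6, which keeps the large subunit from joining too early, was at 495, 523, 359 and 215 CPM. Eif3e, another eIF3 subunit, differed the other way, at 70.4, 107, 128 and 271 CPM. The initiation factors with most reads stayed close to control: Eif4e, which binds the mRNA cap, was at 2581, 2575, 2285 and 2879 CPM. The 21 elongation and termination factors lay on opposite sides of the controls, with medians of 0.14 and -0.63 (0.15 and -0.41 against genes of like level), 11 members higher and 10 lower, 4 separated above and 7 below. Among them Eef1a1 (656, 739, 523 and 228 CPM) and Eef2 (121, 109, 75.1 and 38.5 CPM), which deliver aminoacyl-tRNA and move the ribosome along, were separated below, lowest in knockdown B. Eef1e1, a member of the multisynthetase complex, was at 28.6, 31.2, 68.6 and 65.5 CPM, above both controls in both knockdown libraries.

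Genes of nuclear transport lay below the controls in both libraries. The list of 61 had medians of -0.15 and -0.33 (-0.15 and -0.18 against genes of like level), and 20 (32.8%) were separated below against 6 (9.84%) above. Its 24 importins and exportins, the carriers of cargo through the pore, had medians of -0.30 and -0.29, and 9 were separated below. The 27 nucleoporins were at 0.07 in knockdown A and -0.35 in knockdown B. Kpna2, an importin alpha, was at 3004 and 2988 CPM in control and at 2065 and 1417 CPM in knockdown A and B, a log2 difference of -0.81 (SE 0.32). Nup155, part of the inner ring of the pore, was at 86.7, 79.9, 38.1 and 39 CPM. Both knockdown libraries held nearly the same level of Nup155, under each control. Nup37, a scaffold nucleoporin, was at 37.8, 20.8, 142 and 60 CPM, above both controls in each knockdown library. The export receptor Xpo1 was at 593, 809, 556 and 1640 CPM, below the controls in knockdown A and above them in knockdown B.

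The 127 genes of RNA polymerase II, its general factors and Mediator had medians of -0.07 in knockdown A, next to control A at -0.06, and -0.31 in knockdown B, with 39 (30.7%) separated below and 16 (12.6%) above. Their median log2 difference was -0.15, and it was -0.07 with DESeq2, -0.08 with edgeR and -0.09 with median rescaling. Against genes of like level they were at -0.12 in each library. The 30 Mediator subunits had medians of 0.06 in knockdown A and -0.27 in knockdown B, on either side of control, with 6 separated above and 7 below. The 13 polymerase II subunits had medians of -0.09 and -0.91 in knockdown A and B, 11 having a negative log2 difference. Polr2c, a core subunit, was at 783 and 810 CPM in control and at 859 and 306 CPM in knockdown. Cdk9, the kinase that releases paused polymerase, was at 82.6, 105, 59.2 and 37.5 CPM, and Med29, a Mediator subunit, at 448, 393, 275 and 177 CPM. These 2 genes were separated below, unlike Polr2c, which was lower in knockdown B alone. Gtf2a2, the small subunit of TFIIA, was at 110, 119, 167 and 286 CPM and lay above the controls.

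RNA polymerase III makes transfer RNA and 5S ribosomal RNA. The 28 genes for it and its factors had medians of -0.16 and -0.26 in knockdown A and B (-0.19 and -0.10 against genes of like level), with 10 (35.7%) separated below and 2 (7.14%) above. Brf2, an initiation factor of this polymerase, was at 74.3, 60.4, 36.2 and 22.8 CPM, a log2 difference of -1.19 (SE 0.42). Polr3a, the largest subunit of the polymerase, was at 95.7, 110, 75.6 and 53.3 CPM. Ssb, which binds the ends of new polymerase III transcripts, lay on the other side at 166, 165, 241 and 385 CPM.

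The 70 histone acetylation and bromodomain genes overlapped the controls as a list, with medians of -0.06 and -0.36 in knockdown A and B (-0.14 and -0.20 against genes of like level), and 17 (24.3%) were separated below and 7 (10%) above. Hdac1, a histone deacetylase, was at 358, 475, 200 and 164 CPM, a log2 difference of -1.18 (SE 0.33), and Hdac6, which acts mainly on tubulin, at 51.5, 63.7, 24.6 and 13.2 CPM. Trim28, the corepressor that KRAB zinc finger proteins recruit, was at 149, 155, 87.2 and 62.5 CPM. In these 3 genes each knockdown library lay below each control. Brdt, a bromodomain protein known from the testis and the member with most reads, was at 1492, 1466, 1566 and 1806 CPM, above both controls. Among the 67 histone methylation genes, of which 10 were separated above and 18 below, Eed, a core subunit of Polycomb complex 2, was at 124, 133, 281 and 277 CPM, a log2 difference of 1.11 (SE 0.32).

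The 51 pluripotency and genome-activation factors lay below the controls by little, with medians of -0.12 and -0.14 in knockdown A and B against -0.04 and 0.04 in control A and B. Against genes of like level they were at -0.18 in knockdown A and 0.03 in knockdown B, so they were lower in knockdown A only. Of them, 13 were separated below and 9 above, and the sign of their overall median turned with the scaling. Dppa2, which acts upstream of Dux, was at 697, 777, 396 and 449 CPM, and its partner Dppa4 at 851, 971, 524 and 578 CPM. Both partners were below the controls in both libraries by similar amounts. Dppa3, a maternal protein that protects DNA methylation, overlapped at 9088, 6393, 7803 and 6026 CPM. Klf10, a zinc finger regulator, was at 6.04, 13.4, 26.8 and 65 CPM, a log2 difference of 2.09 (SE 0.60).

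Subunits of oxidative phosphorylation encoded in the nucleus had more members higher than lower. Their medians were 0.49 in knockdown A and 0.07 in knockdown B, 65 of 86 had a positive log2 difference, and 23 (26.7%) were separated above against 7 (8.14%) below. Complex I, which passes electrons from NADH into the chain, had 34 of 41 subunits higher, with medians of 0.56 and 0.24. ATP synthase had 15 of 17 higher, but its medians were 0.35 and -0.04. Complex IV subunits (14) had a median log2 difference of 0.10. Complex III had 5 of 9 subunits higher and a median of 0.06, and the 4 complex II subunits were split, 2 higher and 2 lower, at 0.95 in knockdown A and -0.51 in knockdown B. Ndufb1, a small accessory subunit of complex I, was at 4.6 and 6.67 CPM in control and at 14.6 and 15.6 CPM in knockdown, a log2 difference of 1.29 (SE 0.51). Cox7c of complex IV was at 14.4, 22.8, 28.7 and 51.9 CPM, and Atp5mpl, a small membrane subunit of ATP synthase, at 22.9, 23.9, 41.9 and 58.8 CPM. All 3 were above both controls in each knockdown library. The members with most reads did not share this: Atp5b, the catalytic subunit of ATP synthase, was at 626, 548, 785 and 244 CPM, and Cox8a of complex IV was separated below at 586, 563, 457 and 256 CPM. The list's median log2 difference was 0.34, and 0.22 for members averaging 10 CPM or more. Without knockdown A the median was 0.07, and without knockdown B it was 0.49. Against genes of like level the list was at 0.35 in knockdown A and 0.27 in knockdown B.

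KRAB and other zinc finger genes named Zfp or the like, many of which silence transposable elements, lay above the controls in both libraries, but in knockdown A hardly more than other genes did. The 318 tested of 384 had medians of 0.18 and 0.25 in knockdown A and B, 202 were higher and 116 lower, and 77 (24.2%) were separated above against 38 (11.9%) below. Set against genes of like level, the medians were 0.02 in knockdown A and 0.45 in knockdown B. At an unadjusted p under 0.05 limma gave 26 higher and 6 lower. Zfp735 was at 60.2 and 44.5 CPM in control and at 146 and 194 CPM in knockdown A and B, a log2 difference of 1.68 (SE 0.37). Zfp809, which silences murine leukaemia proviruses, was at 31.4, 22.6, 90.9 and 65.4 CPM, and Zfp97 at 10.7, 9.44, 27 and 42 CPM. For each of these the lower knockdown library held more than the higher control. On the lower side, Zfp791 was at 389, 306, 151 and 165 CPM and Zfp707 at 353, 333, 193 and 74.4 CPM. The member with most reads, Zfp706, was at 911, 978, 924 and 1102 CPM, and Zfp936 split the libraries at 344, 363, 194 and 1060 CPM. The list's median was 0.22 on the deposited scale, 0.39 with DESeq2 and 0.38 with edgeR.

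**Figure D3:**
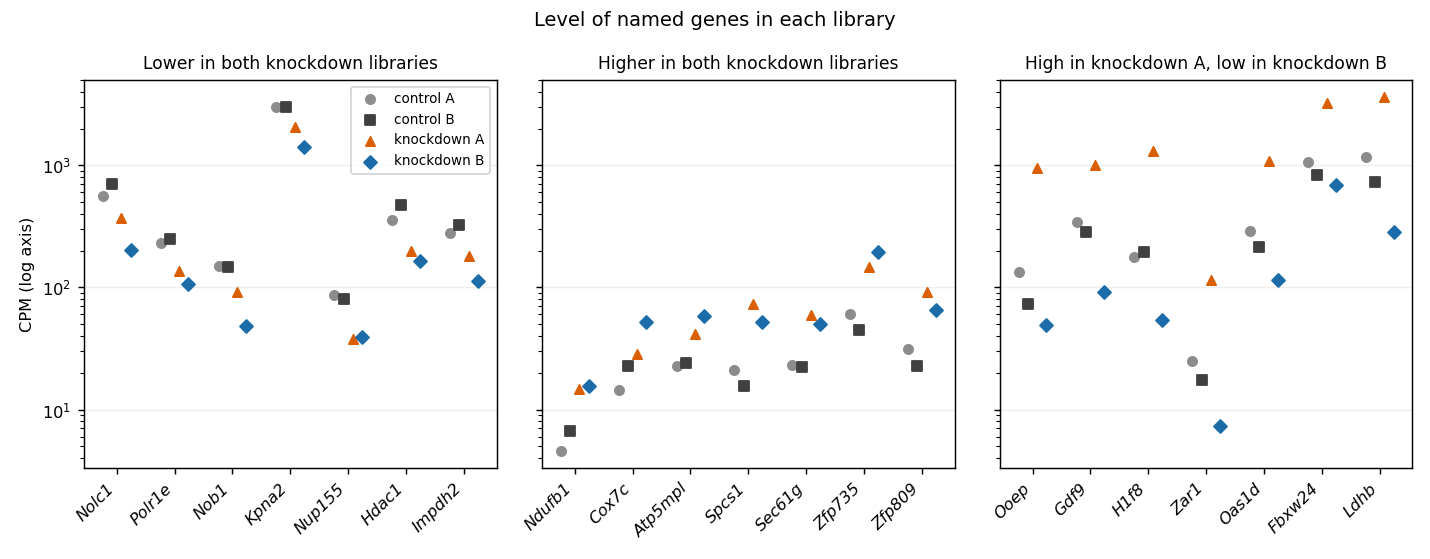
CPM on a log axis of 21 genes in each of the 4 libraries, in panels for genes lower in both knockdown libraries, higher in both, and high in knockdown A but low in knockdown B. Nolc1 stands at 702 CPM in control B and 204 in knockdown B, Zfp735 stands at 194 CPM in knockdown B against 44.5 in control B, and H1f8 parts the knockdown libraries at 1299 and 53.8 CPM.

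The third list above the controls in both libraries was that of p53 targets and apoptosis genes. Its 36 genes had medians of 0.21 and 0.33, with 9 separated above and 4 below. Apaf1, the scaffold on which caspase-9 is activated, was at 23.4, 29.5, 45.7 and 47.3 CPM, and Ccng2, a cyclin linked to growth arrest, at 47.2, 51.7, 88.5 and 75.1 CPM. Bcl2l2, an inhibitor of cell death, was at 865, 685, 493 and 405 CPM; its reads were identical to those of another listed gene, so its own level is uncertain. Bcl2l10, an oocyte-rich member of that family, was at 663 and 607 CPM in control, 3045 in knockdown A and 433 in knockdown B. The list's median log2 difference was 0.22 on the deposited scale and 0.45 with DESeq2.

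Single genes of the secretory pathway lay above the controls, while the lists did not in both libraries. The 90 genes of ER translocation and glycosylation had medians of 0.41 in knockdown A and -0.06 in knockdown B (0.22 and 0.12 against genes of like level), and 26 (28.9%) were separated above and 11 (12.2%) below. Spcs1, a subunit of the signal peptidase, was at 21, 15.5, 73.3 and 51.6 CPM, a log2 difference of 1.72 (SE 0.43). Sec61g, part of the channel into the ER, was at 23.1, 22.4, 59.4 and 50 CPM, and Ssr3 of the translocon-associated complex at 30.7, 30.6, 55.4 and 89.3 CPM. These 3 genes, named because they have the smallest p on the higher side of the list, lay above both controls in each knockdown library. Pmm1, a phosphomannomutase, was separated below at 356, 450, 226 and 150 CPM. Trappc2, a tethering factor for ER-derived vesicles, was at 53.5, 38.9, 133 and 131 CPM, while the 249 vesicle coat, SNARE and secretory genes had medians of 0.34 and -0.24 (0.17 and -0.04 against genes of like level).

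Wide gaps between the knockdown libraries were found in several lists of genes whose mRNA is laid down in the oocyte. The 16 genes of the subcortical maternal complex and its relatives, proteins needed for the first cleavages, had medians of 0.61 in knockdown A and -0.96 in knockdown B. All 16 lay above the control mean in knockdown A and 15 lay below it in knockdown B, while 0 were separated either way. Ooep, a core member, was at 134 and 72.7 CPM in control, 949 in knockdown A and 49.5 in knockdown B. Nlrp5 was at 169, 194, 474 and 65 CPM and Zbed3, a binding partner of the complex, at 2867, 2038, 5329 and 1311 CPM. The summed CPM of the list was 8448, 6660, 14763 and 4973 over control A, control B, knockdown A and knockdown B, so knockdown A held more than either control and knockdown B less. The gap was narrower in the 41 Prame-like and oogenesin genes, which overlapped the controls at 0.12 and -0.34 (0.12 and -0.19 against genes of like level), with 7 separated above and 11 below. The 6 Tcl1 genes had medians of -0.07 and -0.85, and 4 were separated below, but in knockdown A 2 of the 6 lay above the control mean and their summed CPM lay between those of the controls.

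Genes for the egg coat and for factors the oocyte secretes (15) had medians of 0.86 and -1.14. Gdf9, a growth factor for the surrounding follicle cells, was at 345, 283, 1005 and 91.2 CPM, and Izumo1r, the sperm receptor of the egg membrane, at 48.1, 41.5, 170 and 14.1 CPM. Not every member split. Oosp3 was above both controls at 417, 319, 661 and 771 CPM, Bmp15, the partner of Gdf9, likewise at 845, 728, 2019 and 1055 CPM, and Zp3, an egg coat glycoprotein, was below them at 119, 116, 75 and 60.6 CPM.

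Oocyte regulators and meiosis genes (75) had medians of 0.58 and -0.27 (0.60 and -0.11 against genes of like level). Zar1, which holds maternal mRNA in store, was at 24.9, 17.6, 114 and 7.32 CPM. Omt2b, the member with most reads, was at 13228, 12352, 9827 and 12804 CPM and overlapped between the groups. Innate immune genes (39) had medians of 0.76 and -0.65. Of them 28 lay above the control mean in knockdown A and 33 below it in knockdown B, against 7846 and 7688 of all 13332 genes. The Oas genes, relatives of the antiviral oligoadenylate synthetases, were split the same way, and the 8 tested summed to 684 and 493 CPM in control, 2335 in knockdown A and 252 in knockdown B. Oas1d was at 289, 214, 1084 and 115 CPM. Stat2, which carries the interferon signal, lay below both controls in both knockdown libraries, at 30.3, 28, 25.2 and 20.6 CPM. The Fbxw genes, F-box proteins of ubiquitin ligases, summed to 3905, 3023, 10925 and 2775 CPM over 21 genes, of which Fbxw24 was at 1064, 825, 3237 and 692 CPM. The oocyte marker sum given above, highest in knockdown A (3234 CPM), holds Gdf9, Bmp15, Zp3 and Zar1 of these lists, so it is not a separate measure. Its part in these results was not tested.

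Histone genes split the libraries in a different way, with medians of 0.13 and -0.71. The 22 replication-dependent genes, which are copied into mRNA during DNA synthesis, summed to 959, 999 and 1003 CPM in control A, control B and knockdown A and to 304 CPM in knockdown B. H1f8, the oocyte linker histone, was at 176, 195, 1299 and 53.8 CPM. The replacement histones H2az1 (2098, 2362, 1279 and 1053 CPM) and H3f3b (2515, 2703, 1669 and 2058 CPM) were separated below. Slbp, which binds replication-dependent histone mRNA, was at 469, 513, 1757 and 799 CPM, above both controls.

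Several metabolic lists were lower in knockdown B, while in knockdown A they lay near the median of all genes. Glycolysis and pyruvate genes (28) had medians of 0.13 and -0.63 (0.07 and -0.45 against genes of like level), and they summed to 2451, 2258, 5243 and 1393 CPM. Ldhb, the lactate dehydrogenase subunit of eggs, was at 1171, 734, 3596 and 284 CPM. Mitochondrial ribosomal protein genes (80) were higher in knockdown A instead, with medians of 0.52 and -0.26 (0.33 and -0.08 against genes of like level). Of them 64 lay above the control mean in knockdown A and 52 below it in knockdown B, against 7846 and 7688 of all 13332 genes. Of the cytosolic ribosomal protein genes, by contrast, 79 of 90 lay below the control mean in knockdown A and 67 in knockdown B. Among all 13332 genes, 5486 and 7688 did so. Redox and glutathione genes (45) had medians of 0.17 and -0.54 (0.14 and -0.30 against genes of like level), yet Prdx2, a peroxiredoxin that removes peroxide, was separated below at 4440, 3551, 2654 and 1356 CPM. Nucleotide synthesis genes (37) had medians of 0.15 and -0.58. Impdh2, the committed step to guanine nucleotides, was at 278, 326, 181 and 112 CPM, a log2 difference of -1.07 (SE 0.36), and Adsl, an enzyme of purine synthesis, at 252, 298, 163 and 93.4 CPM. Both purine genes were separated below.

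Genes encoded in the mitochondrial genome lay below the controls in knockdown A and above them in knockdown B. This list was added after the values had been seen. Of 13 listed genes, 11 were tested, with medians of -0.58 in knockdown A and 1.57 in knockdown B. In knockdown A 10 of 11 lay below the control mean, in knockdown B 11 of 11 lay above it, and 90.9% lay below in A and above in B, against 14.4% of all genes. CYTB, of complex III, was at 11361 and 13092 CPM in control, 8161 in knockdown A and 36280 in knockdown B. ND1, of complex I, was at 2195, 2515, 1546 and 11880 CPM and COX1, of complex IV, at 5314, 5464, 2798 and 9470 CPM. These genes took 2.31% and 2.61% of the reads of control A and B, 1.58% of knockdown A and 7.62% of knockdown B. With the total taken over nuclear genes only, limma still called 0 genes (761 at an unadjusted p under 0.05). The part of this share in the other differences between the knockdown libraries was otherwise not tested.

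**Figure D4:**
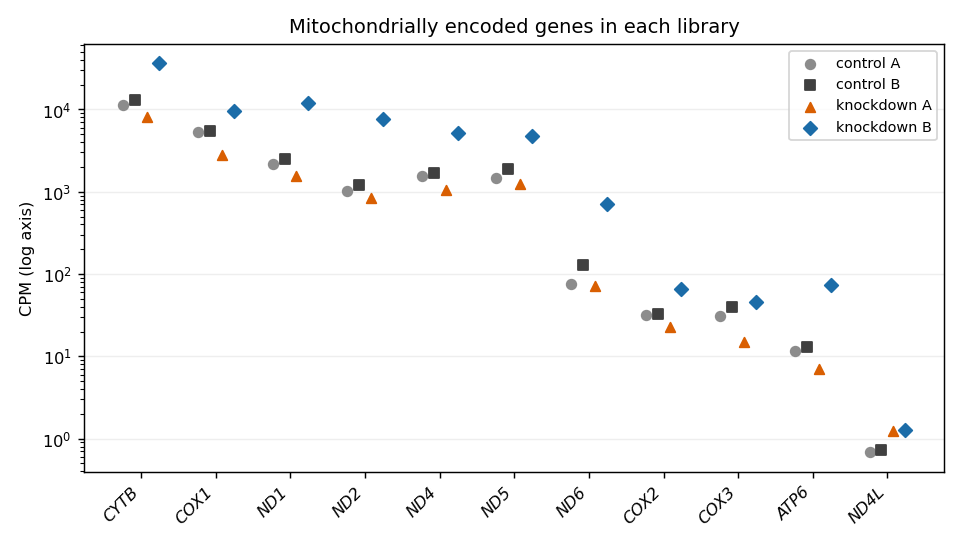
CPM on a log axis of the 11 mitochondrially encoded genes tested, 1 marker per library. Knockdown B is the highest library for each gene, as for CYTB at 36280 CPM, and knockdown A the lowest for each but ND4L.

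Spliceosome genes (122) had medians of -0.01 and 0.01, with 20 separated above and 28 below. Within them Snrpb2, a protein of the U2 particle, was at 47.8, 34.3, 103 and 106 CPM, and Dhx8, a helicase that releases spliced mRNA, at 168, 179, 89.9 and 66.3 CPM, so single genes were separated on either side. Cell cycle genes (137) had medians of -0.02 and -0.40 in knockdown A and B (-0.02 and -0.21 against genes of like level), with 41 (29.9%) separated below and 20 (14.6%) above, so their lower median was in knockdown B. Cdc20, which activates the anaphase-promoting complex, was at 302, 403, 178 and 88.7 CPM, a log2 difference of -1.46 (SE 0.41), and Ccne2, an S-phase cyclin, at 52.2, 77.3, 103 and 223 CPM. Among chaperones (92, medians 0.05 and -0.16, or 0.02 and 0.01 against genes of like level), Hsp90ab1 was at 638, 900, 508 and 279 CPM and Pfdn4, of the prefoldin complex, at 21.8, 17, 66.9 and 46.8 CPM. In each of these lists separated genes stood on both sides.

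Factors that clear maternal mRNA (53) had medians of -0.08 and -0.02 in knockdown A and B, with 12 separated below and 3 above. Against genes of like level they were at -0.15 in knockdown A and 0.13 in knockdown B, and their overall median turned sign with the scaling. Ythdf2, which marks m6A-bearing mRNA for decay, was at 598, 707, 362 and 414 CPM, and Cnot8, a deadenylase, at 383, 383, 257 and 199 CPM. Btg4, the adaptor that brings the deadenylase to maternal mRNA, was at 2721 and 3198 CPM in control, 6482 in knockdown A and 2911 in knockdown B. The stress response list (31) had 5 genes separated above and 7 below. Ppp1r15a, which helps switch translation back on after stress, was at 338, 473, 281 and 82.6 CPM and Sesn2, a stress-induced inhibitor of mTORC1, at 43.5, 59.8, 21.8 and 17.9 CPM. Dnajb9, an ER chaperone partner, was at 725, 676, 375 and 1519 CPM, with knockdown A below and knockdown B above the controls.

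By gene type in RefSeq (GRCm38.p6), long non-coding RNA genes were higher and pseudogenes lower than protein-coding genes. The 577 long non-coding genes had medians of 0.32 and 0.17 in knockdown A and B, 68.8% had a positive log2 difference, and 159 (27.6%) were separated above against 54 (9.36%) below. The 12083 protein-coding genes had medians of 0.14 and -0.18, with 17.9% separated above and 18.4% below. At 3 to 10, 10 to 30 and 30 to 100 CPM the long non-coding median log2 difference was 0.26, 0.28 and 0.29. That of protein-coding genes was 0.07, 0.03 and -0.02. Among these genes of like level the gap lay mostly in knockdown B, with medians of 0.20, 0.25 and 0.11 against -0.20, -0.25 and -0.17. In knockdown A the medians were 0.29, 0.24 and 0.13 against 0.33, 0.22 and 0.06 for protein-coding genes. Gm17751 was at 203, 141, 350 and 520 CPM, a log2 difference of 1.33. The genes 4931428L18Rik and Gm29669 carried identical reads in every library (51.8, 40.1, 136 and 100 CPM) and count as 1 measurement, as do others among the 128 genes whose reads equal another gene's. Mexis was separated below at 53.7, 56.5, 27.1 and 26.2 CPM. The median over the long non-coding genes was 0.26 on the deposited scale, 0.40 with DESeq2 and 0.14 with a pseudocount of 5.

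The 468 pseudogenes had medians of -0.08 and -0.28, with 138 (29.5%) separated below and 58 (12.4%) above. The 52 with an Rpl or Rps symbol had medians of -0.39 and -0.70, close to the ribosomal protein genes, and 29 were separated below against 1 above. The other 416 had medians of -0.01 and -0.24, with 109 (26.2%) separated below. A read from a ribosomal protein gene can be assigned to its pseudogene, and how the counting treated such reads is not given in the sources used here, so these levels are uncertain. Rps2-ps10 was at 60.8, 78, 28.1 and 14.4 CPM, and Gm5543, with no parent in its symbol, at 886, 947, 334 and 419 CPM, a log2 difference of -1.29. Gm21940 was separated above at 47.4, 47.6, 106 and 129 CPM. Among pseudogenes with a mean of at least 10 CPM the median log2 difference was -0.42, and among all of them -0.12.

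**Figure D5:**
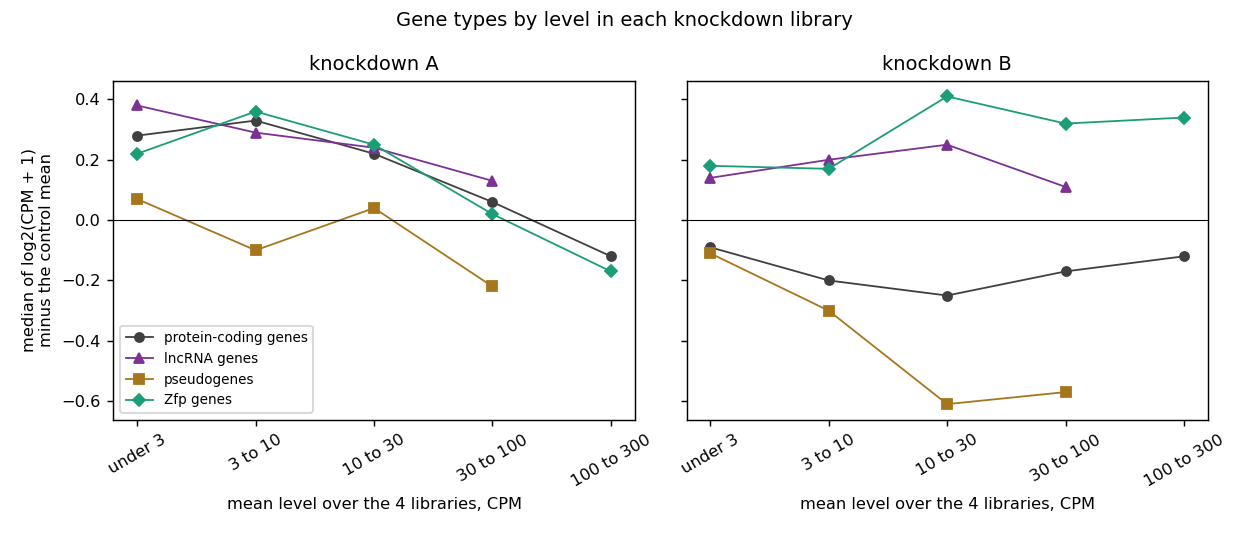
Median of log2(CPM + 1) minus the control mean (y axis) by band of mean level (x axis) for 4 gene classes, with knockdown A on the left and knockdown B on the right, and bands of under 20 genes left out. In knockdown B, Zfp genes and long non-coding RNA genes lie above 0 in each band drawn while protein-coding genes and pseudogenes lie below it.

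The number of CG pairs upstream of the start, which is high in many housekeeping promoters, divided the genes little. Genes with 0 or 1 CG in the 250 bases before the annotated start (614 genes) had a median log2 difference of 0.07 and those with 20 or more (3349 genes) one of 0.03.

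Over all genes, the separated gene with the smallest p that was higher was Gm281, with 0 reads in both controls and 24.4 and 81.7 CPM in knockdown A and B (limma adjusted p = 0.469). Gm281 passed the filter through the knockdown libraries alone, and a count of 0 allows up to 0.12 CPM in control A. The next was Slc25a31, an ATP carrier of the inner mitochondrial membrane known from the testis, at 16.1, 20.1, 63.9 and 120 CPM, a log2 difference of 2.22 (SE 0.45). Eny2, which acts in mRNA export and histone deubiquitination, was at 119, 134, 253 and 492 CPM, and Cept1, which makes membrane phospholipids, at 40.4, 27.8, 153 and 83.6 CPM. In each of these the lower knockdown library held more than the higher control. Outside the Eif1ad family, those on the lower side included Glul, which makes glutamine, at 1109, 987, 502 and 331 CPM, a log2 difference of -1.36 (SE 0.33). Znhit3, a factor in the assembly of box C/D ribonucleoproteins, was at 1277, 1322, 592 and 597 CPM, a log2 difference of -1.13 (SE 0.29). Kif3c, a kinesin, was at 157, 120, 53.5 and 52 CPM, and Zfat, a zinc finger protein, at 111, 90.2, 37.6 and 26.6 CPM. In Znhit3 the replicates of each group lay close together and the groups far apart.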

How the data were processed

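RNA was measured in 2 control and 2 knockdown libraries of mouse 2-cell embryos. The deposited values are CPM per gene, made by the authors from read counts. The submitters' processing notes name Trim Galore 0.6.7, HISAT2 2.2.1, featureCounts 2.0.1 and edgeR with the genome build GRCm39, and strand and annotation are not given in the sources used here. All CPM values came out as whole reads (tolerance 0.05 reads), which gave the library totals. The filter was 1 CPM or more in 2 or more of the libraries, and limma 3.58.1 was run on log2 of CPM plus a pseudocount of 1 (mean-variance trend, two-sided, Benjamini-Hochberg over all genes, threshold 0.05). On simulated reads for these 13332 genes, with 200 changed by a log2 of 1 or 2, limma found 0 of them at the dispersion edgeR estimated from the libraries (0.272) and, at a dispersion of 0.02, 175 at a log2 of 1 and 200 at a log2 of 2. Lists are described by counts and medians, without a set test. RefSeq (GRCm38.p6) gave gene types and the bases around annotated starts only.

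The genes, lists and comparisons were chosen with earlier results of these data known. Genes are named by rule: in a list, the 3 with the highest mean CPM, the 3 separated genes in each direction with the smallest p among those averaging 10 CPM or more, and, in a list split by the knockdown libraries, the 3 with the widest gap between them; over all genes, the 10 in each direction; and Eif1ad3. Some genes meeting the rule are left out, and genes named only as marker, window or sum members fall outside it. Results were recomputed with DESeq2 1.42.0 and edgeR 4.0.16 from recovered reads, pseudocounts of 0.1 and 5, other filters and scalings, no trend, a replicate block, a fold of 1.5, each library left out and, added after the data were seen, nuclear genes as the total. A split by protein length was not run.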

Additional observations from a re-analysis of the deposited data

How the results depend on the processing

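Genes called numbered 0 with limma and stayed at 0 with the other pseudocounts, filters and scalings, without the trend, with nuclear genes as the total, at an adjusted p of 0.1 and with edgeR. DESeq2 called 15, the replicate block 2 (Gm281 and Scn9a) and the replicate block with median rescaling 14; leaving out 1 library gave 0 to 1250. Whether a replicate letter marks libraries handled together is not stated, and same-letter deviations, the replicate pairing, correlated at 0.146 over 2 pairs. Genes 2-fold higher and lower in both knockdown libraries numbered 725 and 273 with a pseudocount of 0.1, 54 and 36 with a pseudocount of 5, 169 and 74 among genes averaging 5 CPM or more, and 1005 and 699 at 1.5-fold; leaving out 1 library gave 447 to 1677 higher and 197 to 2058 lower. Among genes averaging 5 CPM or more, 1608 were separated above and 1881 below. Leaving out 1 library gave 3734 to 6061 above and 3608 to 6227 below, since fewer libraries are easier to separate.

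The median of the mRNA decay list turned from -0.07 to 0.01 with DESeq2, 0.0044 with edgeR and 0.0035 with median rescaling, with or without the block, and ranged from -0.09 to -0.02 with 1 library left out. That of the pluripotency factors went from -0.07 to 0.0025 with median rescaling (the block included), -0.0026 with DESeq2, -0.0020 with edgeR and -0.17 for members of at least 10 CPM, and from -0.14 to -0.01 with 1 library left out. These 2 lists lie near the median of all genes, which the scalings move by a similar amount. Zinc finger genes were at 0.39 with DESeq2, 0.38 with edgeR, 0.27 with median rescaling (the block included) and 0.16 with a pseudocount of 5. Apoptosis genes were at 0.45 with DESeq2 and 0.47 with edgeR. Long non-coding genes were at 0.40 with DESeq2 and with edgeR and 0.14 with a pseudocount of 5. Pseudogenes were at -0.35 among those averaging 5 CPM or more and -0.42 for members of at least 10 CPM. With 1 library left out, medians ranged from -0.67 to -0.42 for ribosomal proteins, from -0.55 to -0.16 for 2-cell families, from -0.33 to -0.15 for nuclear transport and from -0.28 to -0.08 for pseudogenes. The cause of these shifts was not tested.

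Across 93 separated named genes, whose direction with a library left out is fixed by that choice, 73 results of 1 gene in 1 setting passed the threshold.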
